A study of Homo sapiens with 5 samples.

Results

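C/D box small nucleolar RNAs (snoRNAs) were examined as short fragments in small RNA libraries of MCF10A, an immortalized human mammary epithelial cell line. The members were all rows whose name starts with SNORD, the symbol of this class, in count tables of named small RNAs: 248 of 49965 named rows. The attached group (3 libraries, time label 0 h) grew on uncoated plates. The detached group (2 libraries, time label 24 h) was kept on 2% poly-HEMA, a coating that prevents adhesion. By these time labels, detachment and culture time cannot be told apart. The series' own design text gives 24 h for both groups, so whether culture time was matched is not known. No genetic change was listed for either group. The cells form 1 line, and whether the replicates were separate cultures is not given, so p-values reflect library-to-library spread alone, which may be technical. RNAs of 18 to 24 nt had been selected by size. A count is therefore a fragment and not a whole snoRNA, and fewer cells and less RNA per cell cannot be told apart.

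A C/D box snoRNA is held together by its C box near the 5′ end and its D box near the 3′ end, which recruit fibrillarin, NOP56, NOP58 and SNU13. Bases upstream of a D box pair with ribosomal RNA (rRNA) and place a 2′-O-methyl group on it. Most human members lie within introns and are cut out of the spliced host transcript. A few, such as U3, U8 and U14, act in the cleavage of pre-rRNA, and those of the imprinted clusters on chromosomes 14 and 15 have no known rRNA target for most copies.

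The 6 sequences here, from GENCODE 29 on GRCh38 and read 5′ to 3′ on the gene's strand, are those of the members on which the results turn: SNORD49A and SNORD65, with the smallest p toward detached cells, SNORD49B, which lies in the same host gene, SNORD110, the most abundant of the members with small p, SNORD125, with the smallest p toward attached cells, and SNORD104, the second most abundant. Capitals mark a C box match (TGATGA) and a D box match (CTGA).
SNORD49A: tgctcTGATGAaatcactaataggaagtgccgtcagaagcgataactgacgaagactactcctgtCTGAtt
SNORD49B: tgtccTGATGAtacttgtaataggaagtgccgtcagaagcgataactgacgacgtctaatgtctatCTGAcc
SNORD65: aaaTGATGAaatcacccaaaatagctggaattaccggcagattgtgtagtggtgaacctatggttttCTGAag
SNORD110: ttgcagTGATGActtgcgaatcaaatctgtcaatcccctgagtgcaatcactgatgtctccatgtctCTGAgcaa
SNORD104: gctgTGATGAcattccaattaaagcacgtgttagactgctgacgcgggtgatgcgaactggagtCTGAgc
SNORD125: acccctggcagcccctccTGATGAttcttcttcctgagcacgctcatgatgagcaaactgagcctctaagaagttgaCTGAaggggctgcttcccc

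SNORD49A lies at chr17:16440036-16440106, SNORD49B at chr17:16439505-16439576 and SNORD65 at chr17:16441226-16441298, all on the plus strand and all within the non-coding host gene LRRC75A-AS1, where each overlaps an exon of at least 1 annotated transcript. SNORD110 lies at chr20:2654212-2654286 on the plus strand of NOP56, the gene of a core C/D box protein, and overlaps an exon of some transcripts. SNORD104 is intronic in the non-coding gene SNHG25 (chr17:64146083-64146152, plus strand), and SNORD125 is intronic in the adaptor protein gene AP1B1 (chr22:29333163-29333258, minus strand). SNORD49A and SNORD49B share an identical stretch of 35 bases, positions 18 to 52 counted from 1 at the 5′ end of each, and fragments from within it cannot be assigned to either. No stretch of 18 bases of SNORD110, SNORD104 or SNORD125 occurred in another SNORD transcript. Among the 266 annotated SNORD transcripts, the letters TGATGA began within the first 25 bases in 73.7%, CTGA lay within the last 20 bases in 96.2%, and both held in 71.8%, searched on the transcript strand only. A match describes letters and is not evidence of function.

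Total counts on named RNAs ran from 8945953 to 16008489 per library, of which human microRNAs (miRNAs) made up 97.1% in detached replicate 2 and 98.3% to 98.7% in the others. Attached replicate 2 stood apart in these members. Over the tested SNORD rows its Spearman correlation with the other libraries was 0.696 to 0.763. The other libraries correlated at 0.772 to 0.927 with each other, and not by group alone. Attached replicate 1 correlated at 0.876 and 0.889 with the detached libraries and at 0.81 with attached replicate 3. Attached replicate 3 correlated at 0.789 and 0.772 with the detached libraries. Attached replicate 2 was more than 2 times the mean of attached replicates 1 and 3 in 23 rows and under 0.5 times that mean in 33. Levels are given as counts per 1000000 named counts (CPM). The summed level of 5 epithelial miRNA markers was 40954 to 95272 CPM in attached and 84945 to 116812 in detached cells. The 40954 was that of attached replicate 2, which thus stood apart here too. In it miR-205-5p, miR-200c-3p and miR-31-5p were the lowest of all libraries (16808.5, 1718 and 804) and miR-141-3p the highest (21616.5). The level of miR-203a-3p was 6.31 to 7.16 in attached libraries and 119 and 46.5 in detached ones. Sums were 1.34 to 15.9 and 17.4 to 17.8 for blood markers, and 3.72 to 11.5 and 17.0 to 56.7 for fibroblast markers. Among the blood markers the groups were apart in miR-451a and overlapped in miR-142-3p, miR-142-5p and miR-223-3p. Among the fibroblast markers they were apart in miR-145-5p and overlapped in miR-143-3p, miR-199a-3p and miR-214-3p. Muscle markers summed to 0 to 1.37 and 0.0922 to 11.5, with miR-133a-3p at 0 in all libraries. The 11.5 came from miR-1-3p, with 183 counts in detached replicate 1 and 1 count in detached replicate 2. The part of these markers in any result was not tested.

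The 248 rows received 109150 counts in all. Of these rows 180 had any count and 68 had none in any library. Among the 180, 65 had 1 to 19 counts over the 5 libraries, and the rest, with a summed count of 20 or more, were tested and held 108886 counts. Of the tested rows, 111 had counts in every library. The most counted row held 15.2% of all SNORD counts and the 2 most counted 24.2%, and the 12 most counted 53.1%. Names joining several symbols occurred in 47 rows, 20 of them tested. How the names were joined is not given in the sources used here, and 9 tested rows with ambiguous joined names were not placed on the genome. Of 99 tested rows placed with GENCODE, 98 lay inside a host gene: 40 in an intron of every host transcript and 58 overlapping an exon of some transcript.

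The most abundant member was SNORD44, which guides methylation of small-subunit rRNA and lies in the non-coding growth-arrest gene GAS5 (chr1:173865968-173866028, RefSeq GRCh38.p14). Levels from here on are CPM, given for attached replicates 1 to 3 and then, after "against", for detached replicates 1 and 2. SNORD44 stood at 210.5, 321 and 305 against 302 and 286. The groups overlapped, and the log2 fold change (detached over attached) was 0.08 (SE 0.61, edgeR adjusted p 0.977), turning to −0.19 with TMM scaling. SNORD104, a guide for large-subunit rRNA, stood at 51.6, 284 and 131 against 169 and 233 CPM. Its attached libraries spanned the detached ones, and its log2 fold change was 0.37 (SE 0.82, edgeR adjusted p 0.927). SNORD14C, a copy of the pre-rRNA processing RNA U14 in the chaperone gene HSPA8, stood at 55.6, 179 and 66.6 against 41.4 and 98.1 CPM. SNORD93, in the non-coding gene SNHG26, stood at 63.2, 129.9 and 53.6 against 52.4 and 78.6 CPM. In both of these, attached replicate 2 was the highest library, and the log2 fold changes of −0.52 and −0.33 became 0.19 and 0.17 without it. With TMM scaling and without that library they were −0.13 and −0.12, so the change of sign depended on the scaling.

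**Figure D1:**
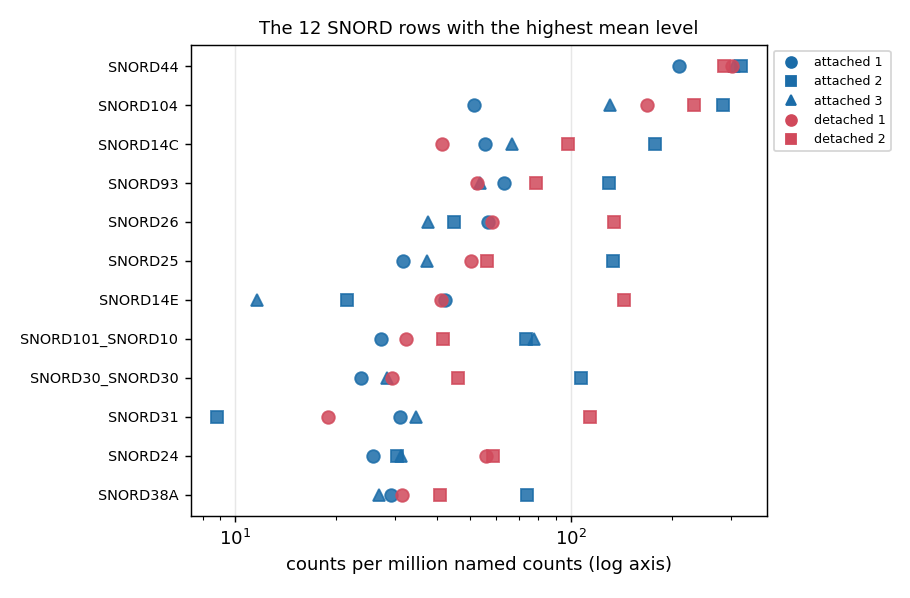
Levels of the 12 SNORD rows with the highest mean (x axis, CPM, log scale), with 1 marker per library, blue for attached and red for detached. The groups overlap except in SNORD26 and SNORD24, and attached replicate 2 (blue square) is the highest library in SNORD44, SNORD104, SNORD14C, SNORD93, SNORD25, SNORD30 and SNORD38A.

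SNORD26 and SNORD24, guides for large-subunit rRNA, were the 2 members among these 12 in which every detached library was above every attached one. SNORD26 stood at 56.5, 44.7 and 37.4 against 58.2 and 135 CPM (log2 fold change 1.06, SE 0.69, edgeR adjusted p 0.688). Without detached replicate 2 its log2 fold change was 0.33. SNORD24, in the ribosomal protein gene RPL7A, stood at 25.7, 30.3 and 31.2 against 55.9 and 58.7 CPM (log2 fold change 0.98, SE 0.63, edgeR adjusted p 0.683). Both fold changes rest on gaps that the edgeR test did not call. SNORD38A, also a guide for large-subunit rRNA, stood at 29.2, 73.8 and 26.7 against 31.3 and 40.8 CPM, with overlapping groups. The row SNORD101_SNORD10 stood higher in attached replicates 2 and 3 (73.7 and 77.6) than in attached replicate 1 (27.1) and the detached libraries (32.4 and 41.7), with a log2 fold change of −0.68.

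The main comparison asked which fragments differ between detached and attached cells. None of the tested SNORD rows was called at an edgeR adjusted p under 0.05 in either direction, against 0% of all 1596 tested rows. At an unadjusted p under 0.05, 11 rows (9.57%) were higher in detached cells, against 8.02% of all tested rows, and 1 row (0.87%) was lower, against 1.19%. The log2 fold change was positive in 82 rows (71.3%, median 0.56), against 62% of all tested rows (median 0.33). With TMM scaling, which moved the median of all tested rows from 0.33 to 0.00, it was positive in 68 rows (59.1%, median 0.16), against 50.2% of all tested rows. Without detached replicate 2, the highest library in 71 tested rows, it was positive in 46 of 112 rows with a median of −0.19, against 45.8% of all tested rows, whose median was −0.09.

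**Figure D2:**
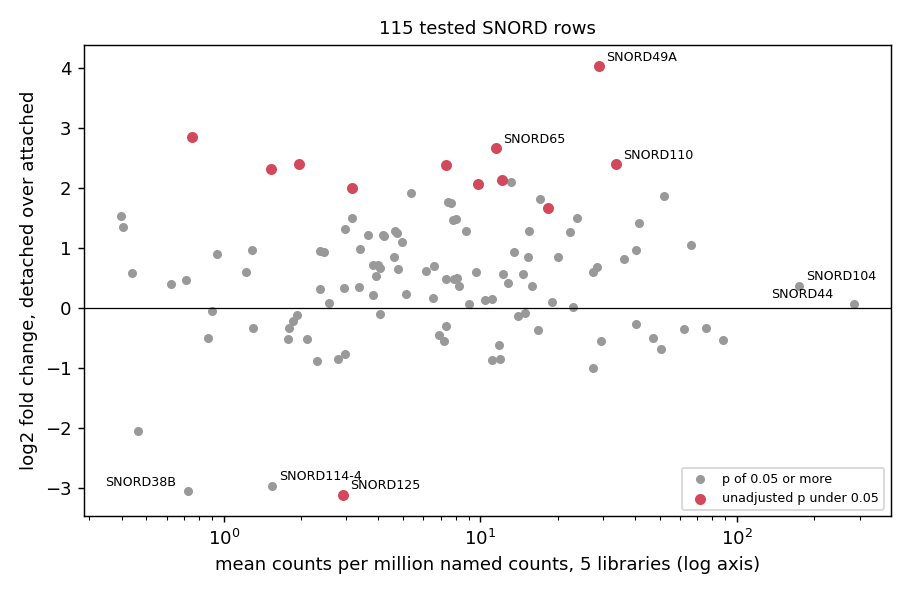
Log2 fold change of the tested SNORD rows (y axis, detached over attached) against mean level over the 5 libraries (x axis, CPM, log scale), with red for an unadjusted edgeR p under 0.05. SNORD49A lies highest at 4.04 and SNORD125 lowest at −3.11, while SNORD44, the most abundant, lies near 0.

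Every detached library was above every attached library in 29 tested rows (25.2%), against 20.8% of all tested rows, and below in 3 (2.61%), against 6.83%. The 3 were SNORD125, SNORD114-7 and SNORD58_SNORD58C, the last named after its values were seen. SNORD114-7 had few counts in every library, given below, so its gap rests on a few counts. In SNORD58_SNORD58C the gap was narrow, with 7.36, 9.84 and 6.68 against 6.31 and 6.63 CPM (log2 fold change −0.30, SE 0.67, edgeR adjusted p 0.927). Without attached replicate 2 the counts were 42 above (36.5%), against 29.2%, and 4 below (3.48%), against 12.6%.

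SNORD49A, a guide for large-subunit rRNA, showed the smallest p. Its raw counts were 85, 23 and 27 against 775 and 913, or 6.87, 2.57 and 2.58 against 48.4 and 84.1 CPM. The groups were far apart, and their means differed 16.5-fold. The log2 fold change was 4.04 (SE 0.81, edgeR adjusted p 0.147), 3.65 with TMM scaling and 3.80 without attached replicate 2 (adjusted p 0.165). DESeq2 called it (adjusted p 4.63e-04, against 1.63% of all tested rows called higher by that tool), and the authors' deposited table gives a log2 fold change of 3.27 with an adjusted p of 0.00431. Of 201 SNORD rows in the authors' deposited table, 92 carry no adjusted p, and SNORD49A is the only one of the rest under 0.05, against 18 of all 2991 rows with an adjusted p (0.602%). When every row with any count was kept, edgeR called it too (adjusted p 0.00277, against 0.348% of those rows called higher; no SNORD row was called lower, against 0.133%). limma-voom called 0% of all tested rows in either direction and so no SNORD row. At an unadjusted limma-voom p under 0.05, 12 SNORD rows were higher, against 6.83% of all tested rows, and 1 was lower, against 0.627%. The adjusted p of SNORD49A thus fell on either side of 0.05 with the tool and the filter, while its direction held in every alternative.

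Its neighbours in LRRC75A-AS1 stood less far apart. SNORD65, a guide for small-subunit rRNA listed under a doubled name that may pool copies and sharing stretches of 18 bases with SNORD65B and SNORD65C, stood at 2.35, 4.36 and 4.30 against 28.2 and 18.5 CPM. The 2 groups did not overlap (log2 fold change 2.67, SE 0.71, edgeR adjusted p 0.255). SNORD49B, chosen after its values were seen, stood at 5.09, 0.559 and 2.48 against 4.12 and 8.57 CPM, with overlapping groups (log2 fold change 1.21, SE 0.95, edgeR adjusted p 0.752). SNORD49A made up 27.6% to 48.0% of the counts of these 3 rows in attached libraries and 60.0% and 75.6% in detached libraries. Its share was thus higher in both detached libraries than in all attached ones, a difference that was not tested. The 3 rows together held only 177, 67 and 98 counts in the attached libraries. How fragments from the 35 bases shared by SNORD49A and SNORD49B were counted is not given, so the split between these 2 rows is uncertain.

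**Figure D3:**
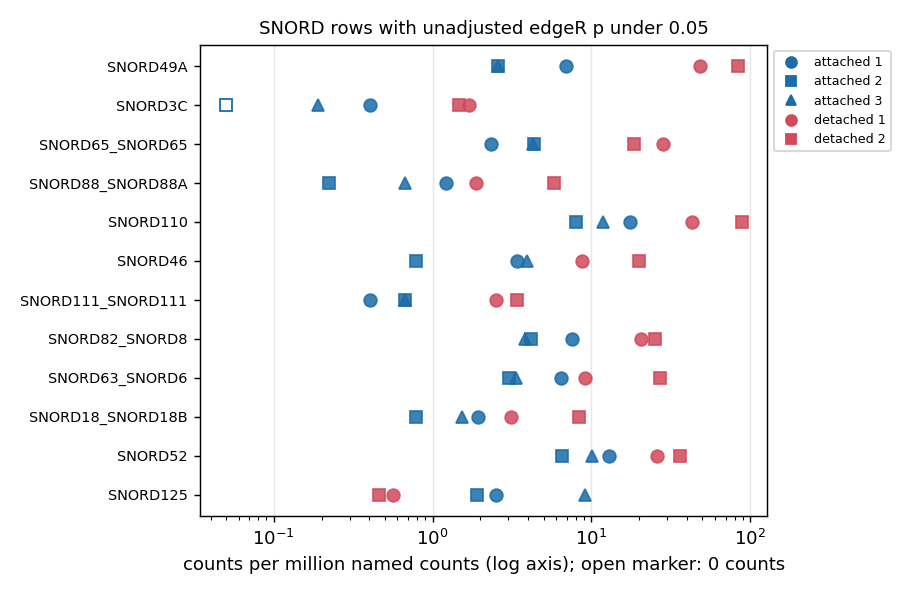
Levels of the 12 SNORD rows with an unadjusted edgeR p under 0.05 (x axis, CPM, log scale), with 1 marker per library, blue for attached and red for detached, and open markers for 0 counts. In all 12 rows the groups do not overlap, and SNORD125 alone lies lower in detached libraries.

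SNORD110, a guide for small-subunit rRNA, stood at 17.4, 8.05 and 11.8 against 43.3 and 88.2 CPM. Both detached libraries were above all attached ones (log2 fold change 2.40, SE 0.73, edgeR adjusted p 0.372). Of the other rows hosted by NOP56, SNORD57, also a guide for small-subunit rRNA, stood at 3.15, 3.35 and 10.5 against 9.0 and 39.7 (log2 fold change 2.10, and 0.67 without detached replicate 2). SNORD86, a regulator of splicing of its host transcript, stood at 5.50, 1.34 and 3.82 against 3.19 and 5.16, with a log2 fold change of 0.23 that became −0.12 with TMM scaling. Both of these rows were named after their values were seen, and their groups overlapped.

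The remaining rows with an unadjusted p under 0.05 and higher levels in detached cells had edgeR adjusted p-values of 0.418 to 0.536. SNORD111, a guide for large-subunit rRNA in the splicing factor gene SF3B3, stood at 0.404, 0.671 and 0.668 against 2.50 and 3.41 CPM (log2 fold change 2.33). SNORD46, a guide for large-subunit rRNA, stood at 3.40, 0.782 and 3.91 against 8.75 and 19.8 (2.39). SNORD3C, a copy of U3, had 5, 0 and 2 counts against 27 and 16 (2.86), and SNORD3A, another copy, was at 0 in every library. Near-identical copies of U3 make the share of each copy uncertain. SNORD82_SNORD8 stood at 7.52, 4.14 and 3.82 against 20.4 and 25.1 (2.14), and SNORD52, named after its values were seen, at 12.9, 6.48 and 10.0 against 26 and 36.3 (1.67). The rest were SNORD63_SNORD6, SNORD88_SNORD88A and SNORD18_SNORD18B, at 2.08, 2.41 and 2.00; the first 2 were named after their values were seen. Without detached replicate 2 these 3 stood at 1.09, 1.39 and 1.13, SNORD46 at 1.69 and SNORD110 at 1.80.

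SNORD125 was the member with the smallest p toward lower levels in detached cells. Its raw counts were 31, 17 and 96 against 9 and 5, or 2.51, 1.90 and 9.16 against 0.562 and 0.461 CPM. The groups did not overlap, and the attached mean owed most to attached replicate 3. The log2 fold change was −3.11 (SE 1.04, edgeR adjusted p 0.430), DESeq2 called it (adjusted p 0.0395, against 0.376% of all tested rows called lower by that tool), and the authors' deposited table gives −2.74 with an adjusted p of 0.196. The other members of lowest p in this direction had few counts: SNORD114-7 had 5, 11 and 4 against 2 and 2 (log2 fold change −2.05), SNORD114-4 had 2, 21 and 48 against 1 and 6 (−2.96), and SNORD38B had 1, 7 and 26 against 0 and 3 (−3.05). A count of 0 allows up to 3 counts, or 0.187 CPM in detached replicate 1, for counting error only. SNORD74, a GAS5 member with a doubled name, stood at 39.2, 49.7 and 14.3 against 15.5 and 18.8 CPM (−1.01).

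Among host genes and roles, taken from lists chosen with earlier results known, edgeR called no listed row with all 5 libraries or without attached replicate 2. The share of all tested rows called was 0% in both fits. With DESeq2 without attached replicate 2, SNORD110 of the NOP56 list was called higher, against 2.75% of all rows tested in that fit. The rows of U3, U8, U13, U14 and U22 (14 rows, 10 tested) had positive log2 fold changes in 5, and in 9 without attached replicate 2, with 1 row, SNORD3C, at an unadjusted p under 0.05. In this group SNORD14E, a U14 copy that shares stretches of 18 bases with SNORD14C, stood at 42.1, 21.6 and 11.6 against 41.0 and 144 CPM. GAS5 rows (6, 4 tested) were positive in 1, and in 3 of 4 without attached replicate 2, which moved their median from −0.45 to 0.13. This too depended on the scaling, as TMM with all libraries gave 0 of 4 positive (median −0.81). With TMM scaling and without attached replicate 2, SNORD44 stood at −0.009 and SNORD74 at −0.94. SNORD44 held 80.5% to 93.1% of the counts of the GAS5 rows in each library. SNHG1 rows (7, 5 tested) were positive in 2, and in 5 of 5 without attached replicate 2. Within SNHG1, SNORD25 stood at 31.7, 134 and 37.3 against 50.5 and 56.1 CPM, and SNORD31 at 30.9, 8.83 and 34.6 against 18.9 and 113.8. Attached replicate 2 was the highest of the libraries for SNORD25 and the lowest for SNORD31, which lie in the same host.

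**Figure D4:**
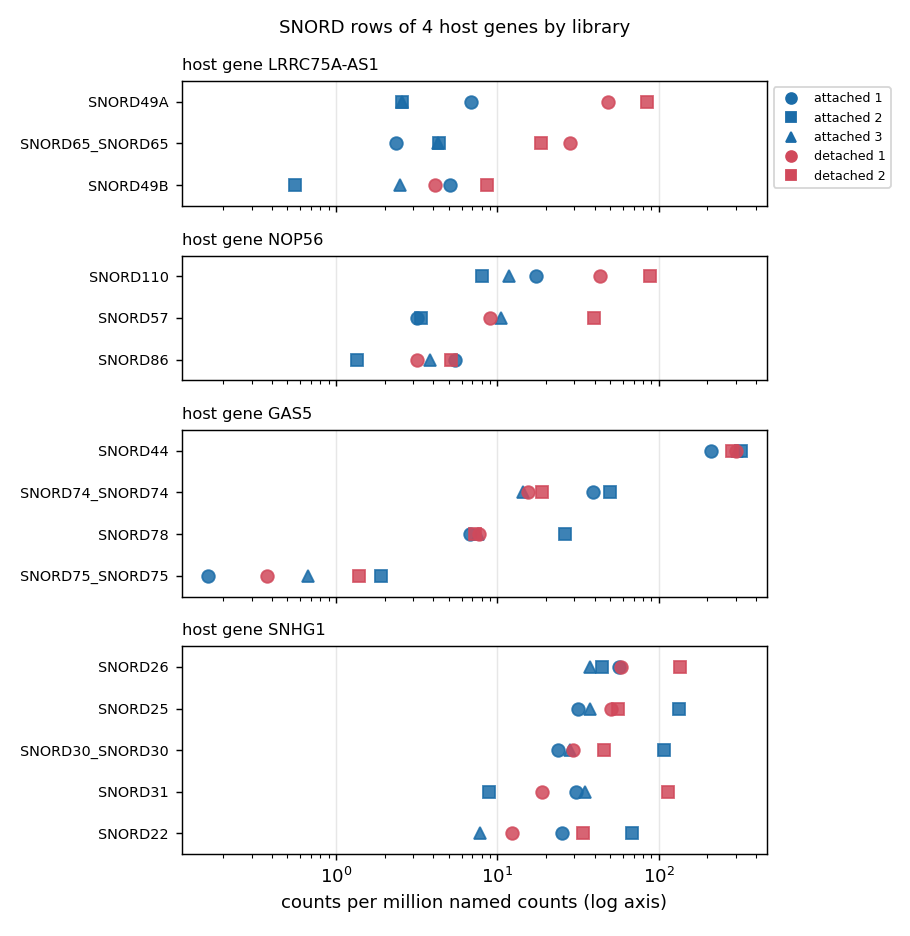
Levels of the tested SNORD rows of 4 host genes (x axis, CPM, log scale), with 1 marker per library, blue for attached and red for detached. In LRRC75A-AS1 the detached libraries lie above the attached ones for SNORD49A and SNORD65 but not SNORD49B, and in GAS5 the groups overlap in all 4 rows.

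The rows of ribosomal protein hosts were mixed. All 4 tested rows of RPL23A and all 4 of RPL4 had positive log2 fold changes, against 62% of all tested rows. Their medians were 1.04 and 0.76, and with TMM scaling 3 of the 4 RPL4 rows were positive. The RPL23A rows summed to 28.9, 4.69 and 16.6 against 16.2 and 50.4 CPM. The RPL4 rows summed to 33.6, 21.5 and 27.8 against 17.9 and 67.5. Without detached replicate 2 the log2 fold changes were −0.30 for SNORD4A and −0.77 for SNORD18C, but 0.09 for SNORD42B and 1.13 for SNORD18_SNORD18B. RPL7A had 2 positive of 4 tested rows, and RPL13A had 2 of 3. In RPL23A, SNORD4A stood at 22.1, 1.79 and 10.9 against 9.43 and 32.5 CPM and SNORD42B at 2.43, 1.01 and 2.01 against 1.94 and 8.48, and attached replicate 2 was the lowest library of both. In RPL13A, SNORD32A stood at 18.4, 4.58 and 6.40 against 6.43 and 41.3 CPM; its log2 fold change of 1.28 rested on detached replicate 2 and was −0.60 without it. In RPL4, SNORD18C, a guide for large-subunit rRNA, stood at 17.7, 11.7 and 13.2 against 8.31 and 28.4 CPM, with the detached libraries on either side of all attached ones. The only RPL4 row with an unadjusted p under 0.05 was SNORD18_SNORD18B. Positive log2 fold changes were found in 2 of 3 tested rows of HSPA8 and in 1 of 2 of each of the non-coding hosts ZFAS1 and SNHG5. In ZFAS1, SNORD12C stood at 7.03, 12.3 and 26.4 against 6.56 and 22.4 CPM and SNORD12B at 6.47, 8.27 and 19 against 7.37 and 22.9, so that attached replicate 3 and detached replicate 2 were the highest libraries of both. In SNHG5, SNORD50B stood at 1.70, 9.05 and 4.49 against 5.12 and 10.4, and the row of SNORD50A, whose name joins several symbols, at 8.49, 25.3 and 9.74 against 10.7 and 15.7. In RACK1, SNORD96A was the 1 tested row, at 34.1, 16.8 and 32.2 against 39.5 and 58.6 CPM (log2 fold change 0.83, SE 0.69, edgeR adjusted p 0.770).

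Members of the imprinted clusters were scarce. Of 66 rows on the chromosome 15 cluster, known mainly from brain, 32 had any count and 4 were tested. Log2 fold changes were positive in 2 of the 4 and negative in 2, with a median of 0.62. In 2 of the 4 every detached library was above every attached one, against 20.8% of all tested rows. The smallest p was that of SNORD116-29, a row of few counts (log2 fold change 1.54, edgeR adjusted p 0.698). The most abundant, SNORD116-10, stood at 18.2, 9.84 and 13.1 against 5.00 and 13 CPM (log2 fold change −0.61). SNORD116-10 shares stretches of 18 bases with 15 other SNORD116 copies, so its counts cannot be assigned to that copy alone. Of 37 rows on the chromosome 14 cluster, 16 had any count and 2 were tested, SNORD114-4 and SNORD114-7, both with negative log2 fold changes.

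The summed level of all SNORD rows was 1311, 2186 and 1480 against 1668 and 2872 CPM, with means of 1659 ± 464 (SD, n = 3) and 2270 ± 852 (SD, n = 2). The groups overlapped, and the difference of 0.43 in mean log2 level had p = 0.4 (exact permutation test over libraries, two-sided; the smallest p that 10 assignments allow is 0.1). With TMM and RLE factors the difference was 0.13 and 0.07. Rows of H/ACA box and Cajal body snoRNAs (110 rows, SNORA and SCARNA), which guide pseudouridylation of rRNA or the modification of spliceosomal RNA, summed to 91.4, 540.2 and 205 against 157 and 330.1 CPM. The ratio of the SNORD sum to the SNORA and SCARNA sum was 14.4, 4.05 and 7.21 against 10.7 and 8.70. Its log2 difference was 0.36 (exact permutation p = 0.7) and −0.0795 without attached replicate 2. Fragments of 5S rRNA rows stood at 51.8, 62.6 and 40.1 against 157 and 328 CPM (exact permutation p = 0.1), and spliceosomal RNA rows at 324, 417 and 328 against 380.2 and 1201. Detached replicate 2 was the highest library in the SNORD, spliceosomal RNA and 5S sums, and the part of this in single members was not tested.

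Without attached replicate 2, edgeR called no SNORD row in either direction (0% of 1491 tested rows). At an unadjusted p under 0.05, 13 were higher, a share slightly above the 10.2% of all rows tested. At that threshold 1 was lower, a share below the 1.81% of all rows tested. Log2 fold changes were positive in 94 rows with a median of 0.60, a larger share than the 62.2% of all rows tested. DESeq2 without this library, chosen after seeing the data, called 3 rows higher, against 2.75% of all rows tested. The share of SNORD rows called higher was thus no larger than that of all rows. DESeq2 called 1 row lower, against 0.671%, and a single row cannot tell these shares apart. The called rows were SNORD49A (adjusted p 1.2e-04), SNORD65 (0.00755), SNORD110 (0.0433) and, lower, SNORD125 (0.00908).

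**Figure D5:**
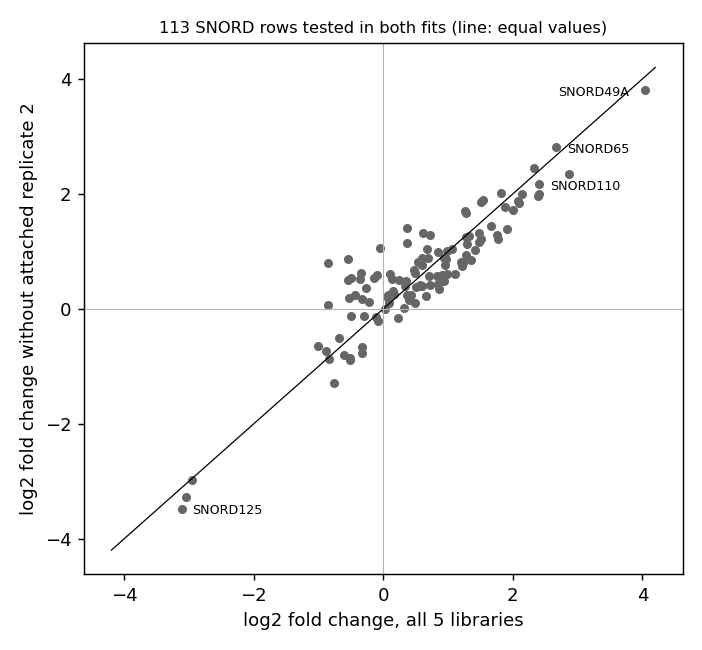
Log2 fold change of the SNORD rows tested in both fits without attached replicate 2 (y axis) against that with all 5 libraries (x axis); the line marks equal values. SNORD49A lies at 4.04 and 3.80 and SNORD125 at −3.11 and −3.48, each on the same side of 0 in both fits.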

How the data were processed

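Small RNA counts of 3 attached and 2 detached MCF10A libraries were used. The deposited tables hold raw counts per named small RNA. Per the submitters' processing notes, hg38 and DESeq2 were used, without a stated role. How reads were aligned and counted, and how those with several matches were treated, is not given in the sources used here. The authors' deposited table gives log2 fold changes with standard errors (a log2 scale), a test score, p-values and signal, that is counts divided by size factors; its 5 per-sample columns were not used. The 5 summary rows of the counting program total 0.

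Levels are counts per 1000000 named counts (CPM). Rows with a summed count of 20 or more (1596) entered edgeR 4.0.16 (R 4.3.3, quasi-likelihood F test, two-sided, library size the total of named counts, no scaling factor, Benjamini-Hochberg adjustment over all tested rows, call under 0.05). The standard error is the absolute log2 fold change over the square root of F. The test was run on simulated data first. Summed levels were compared by exact permutation. Depth was 8945953 to 16008489 counts, where 3 counts, the limit for a count of 0, equal 0.187 to 0.335 CPM; this covers counting error only, as reads are not independent molecules. Alternatives were TMM and RLE factors, miRNA and SNORD totals, DESeq2 1.42.0, limma-voom 3.58.1, other filters, a replicate block and leaving out each library; attached replicate 2 left out with TMM or DESeq2 was added after seeing the data.

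The members and lists were chosen with earlier results of these data known. Rows were named by a rule: the 12 highest mean levels, all calls, the 5 smallest p in each direction, and for each list the highest level and smallest p. The other named rows are marked in the text. Chi-square values of replicate counts over tested SNORD rows were 22.9 to 47.7 times their degrees of freedom, so none was treated as a duplicate. Positions are 1-based, from GENCODE 29 or RefSeq GRCh38.p14, both on the hg38 assembly. One host gene is not reported here.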

Additional observations from a re-analysis of the deposited data

How the results depend on the processing

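The edgeR count of 0 SNORD rows called higher and 0 lower stayed at 0 with TMM and RLE factors, the miRNA and SNORD totals, limma-voom, the filter at 100 counts and each library left out. DESeq2 called 1 higher and 1 lower, against 1.63% and 0.376% of all tested rows. The filter on any count gave 1 higher, against 0.348%. DESeq2 without attached replicate 2 called 3 higher and 1 lower, against 2.75% and 0.671%. In both DESeq2 fits the SNORD share called higher was below that of all tested rows. The shares called lower, and that with the filter, were above it but rested on 1 row each. The log2 difference in summed level was 0.1345 with TMM and 0.07394 with RLE factors. It ran from 0.0429 to 0.827 as each library was left out. That of the ratio of SNORD to SNORA and SCARNA sums ran from −0.0795 to 0.834.

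With a replicate block 0 of all 1596 tested rows were called in either direction. Of the SNORD rows 1 was higher at an unadjusted p under 0.05, against 4.64% of all tested rows. SNORD12C turned to 0.3833. Deviations of same-numbered libraries correlated at −0.283 and −0.254 over 2 pairs. With 2 detached libraries the deviations mirror each other (correlation −1.0), so these values cannot decide whether same-numbered libraries were paired.

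Of 43 named rows, 28 kept their sign in every alternative run and 15 turned in at least 1 (55 of 675 values), the cause of which was not tested. All values here are log2 fold changes. TMM factors gave −0.1872 for SNORD44, −0.07457 for SNORD18C and −0.1182 for SNORD86. RLE factors gave −0.251 for SNORD44, −0.05374 for SNORD104, −0.1419 for SNORD18C, −0.006986 for SNORD12B and −0.1551 for SNORD86, and DESeq2 gave −0.2509, −0.05373, −0.1422, −0.007238 and −0.1574 for the same rows. The SNORD total gave −0.2874 for SNORD44, −0.316 for SNORD18C, −0.2137 for SNORD12B and −0.4059 for SNORD86, and limma-voom 0.01413 for SNORD50A. Without attached replicate 2, TMM factors gave −0.009223 for SNORD44, 0.3975 for SNORD25, 0.259 for SNORD30, 0.1021 for SNORD38A, −0.06497 for SNORD4A, −0.1436 for SNORD18C, 0.2629 for SNORD50A, −0.06585 for SNORD12B and −0.4656 for SNORD86. DESeq2 without it gave −0.04383, 0.3621, 0.2215, 0.06556, −0.107, −0.1856, 0.226, −0.1073 and −0.5046 for the same rows.

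Leaving out 1 library at a time gave −0.09227 to 0.1889 for SNORD44, −0.0433 to 1.141 for SNORD104, −1.275 to 0.1914 for SNORD14C, −0.6496 to 0.1654 for SNORD93, −0.6828 to 0.6277 for SNORD25, −0.8547 to 0.5337 for SNORD30, −0.3943 to 2.198 for SNORD31 and −0.5134 to 0.3666 for SNORD38A. The ranges were −0.2978 to 1.723 for SNORD4A, −0.7736 to 0.9975 for SNORD18C, −0.6048 to 2.116 for SNORD32A, −1.216 to 0.5819 for SNORD12C, −0.4392 to 0.5304 for SNORD50A, −0.6086 to 1.034 for SNORD12B and −0.1626 to 0.6862 for SNORD86. Rows with few counts are limited by depth, since 3 counts equal up to 0.335 CPM.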
